A study of Mus musculus with 23 samples.

Results

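The epithelial keratin and junction genes followed here were 9 genes, Krt8, Krt18, Krt19, Krt7, Cdh1, Epcam, Cgn, Cldn6 and Cldn7, out of 20145 genes that could be named on the arrays. They were taken as the probes whose RefSeq accession maps to one of these symbols, and each of the 9 had a single probe. Of the 9, 6 reached a log2 intensity of 6.5 on at least 1 array and entered the tests with 15202 genes in all. The other 3 members, Cdh1, Epcam and Cldn6, stayed under that level on all 23 arrays and are given by their values only. Cdh1 and Epcam are the defining genes of an epithelium, so the name of the set describes what these genes are known for and not the identity of these cells. The set was chosen by the log2 difference of Krt8 between HE2 arrays with and without Dox, which was already known. For that comparison the members are therefore described with no test given. Calls there are counted only for marker genes and over all genes.

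Messenger RNA was measured on 1-colour Agilent mouse arrays in cells differentiated from a single engineered embryonic stem cell clone (strain C57BL/6 in the labels), in which doxycycline (Dox) switches on HA-tagged human RUNX1-ETO from a TET-responsive promoter while RUNX1 itself stays wild type. RUNX1-ETO is the fusion protein of t(8;21) acute myeloid leukaemia. Every group carried this transgene, and Dox without the transgene was not among the arrays. Flk1+ cells were put in blast culture, Dox at 0.1 µg/ml was added on day 1 to the induced cultures, and 3 populations were sorted from induced and uninduced cultures on day 2: the haemogenic endothelium (HE, KIT+Tie2+CD41-), the later haemogenic endothelium that has gained CD41 (HE2, KIT+Tie2+CD41+) and progenitors (CD41+KIT+Tie2-). Myeloid progenitors were day 2 progenitors moved to expansion medium, with or without Dox for 12 h, and collected on day 3. There were 3 arrays per group for HE, HE2 and myeloid progenitors with and without Dox, and 2 per group for progenitors. The third induced myeloid array is a biological replicate by its title and a technical one by its source name, and was used as replicate 3. A further array of uninduced progenitors, titled as a technical replicate, was normalised with the others but kept out of the fit. The titles number the arrays as biological replicates without saying whether each was a separate differentiation, so the p-values measure the spread between these arrays.

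Keratins 8, 18, 19 and 7 are the intermediate filament proteins of simple epithelia. A type II keratin (Krt8, Krt7) pairs with a type I keratin (Krt18, Krt19) to build a filament, and Krt8 and Krt18 are the usual partners. Cdh1 is E-cadherin, the adhesion protein of epithelial adherens junctions, and Epcam is an adhesion molecule of the epithelial surface. Cldn6 and Cldn7 are claudins, the membrane proteins that seal tight junctions, and Cgn, cingulin, is a protein of the cytoplasmic side of the tight junction. The formation of blood cells from endothelium involves loss of cell contacts as cells round up.

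The labels were checked against marker genes. Runx1t1, the ETO partner gene, was higher on all induced than on all uninduced arrays at every stage, and the difference passed the test in progenitors and myeloid progenitors but not in HE (log2 change 1.24 ± 0.33 SE, limma adjusted p = 0.0155). Tek, which encodes Tie2, followed the Tie2 gate by its means within each condition but not across conditions. On the log2 scale its mean without Dox was 10.67 in HE2, sorted as Tie2+, and 8.67 in progenitors, sorted as Tie2-. These arrays did not overlap. With Dox the means were 12.41 and 11.10, and the arrays overlapped. Neither difference passed the test. The mean of induced progenitors was thus above that of uninduced HE2. In myeloid progenitors Tek was 9.20 without and 12.27 with Dox. Itga2b, which encodes CD41, did not separate HE from HE2 without Dox (overlapping arrays). Between 48.8% and 78.4% of spots on an array were well above background. The arrays lay on 3 slides; the myeloid arrays were all on slide 3, with 1 induced progenitor array and the additional uninduced progenitor array.

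Krt8 and Krt18 lie close together on mouse chromosome 15, with only long noncoding RNA genes between them in the RefSeq order, and both were lower with Dox in HE2. Their promoters are shown because these are the partner genes that were low together. The RefSeq promoter table (GRCm38.p6) held 7 of the 9 members, without Krt19 and Cdh1. The 250 bases before the start site are printed on the strand of the gene, and capitals mark motif matches on either strand. The RUNX motif was searched as the letters TGTGGT. The ETS motif was searched as the letters GGAAGT. For the GATA factors the letters were AGATAA, and AP-1 sites were searched as the letters TGANTCA. Sp1 sites were searched as the letters GGGCGG, and the TATA box as the letters TATAAA. Krt8 lies on the minus strand at chr15:102004343-102004592 and Krt18 on the plus strand at chr15:102027966-102028215.
Krt8: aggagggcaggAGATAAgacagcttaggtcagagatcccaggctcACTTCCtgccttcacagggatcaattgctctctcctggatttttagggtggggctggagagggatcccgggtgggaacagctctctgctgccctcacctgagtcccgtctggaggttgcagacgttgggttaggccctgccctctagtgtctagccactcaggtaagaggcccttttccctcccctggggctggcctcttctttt
Krt18: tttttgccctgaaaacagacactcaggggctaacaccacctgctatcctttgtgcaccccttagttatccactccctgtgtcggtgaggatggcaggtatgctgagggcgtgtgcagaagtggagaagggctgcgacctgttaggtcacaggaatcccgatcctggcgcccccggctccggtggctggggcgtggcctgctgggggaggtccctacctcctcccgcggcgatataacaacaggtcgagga
The Krt8 window held 1 AGATAA, whose first base lay 239 bases before the start, and 1 GGAAGT, on the opposite strand as ACTTCC, 205 bases before it, and they did not overlap. The Krt18 window held none of the 6 motifs. Over all 32851 promoter windows of the same length, AGATAA occurred in 9.99% and GGAAGT in 19.7%. TGTGGT, the letters of a RUNX site, occurred in 14% of all windows and in 0 of the 8 windows of members, of which 2 were of Cldn7. Of these 8 windows, 4 held GGAAGT, 1 held AGATAA and 5 held GGGCGG, which occurred in 32.7% of all windows. TGANTCA and TATAAA occurred in 0 of the 8, and in 6.75% and 12.4% of all windows. These are matches of letters in a short window and were not compared with binding.

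**Figure D1:**
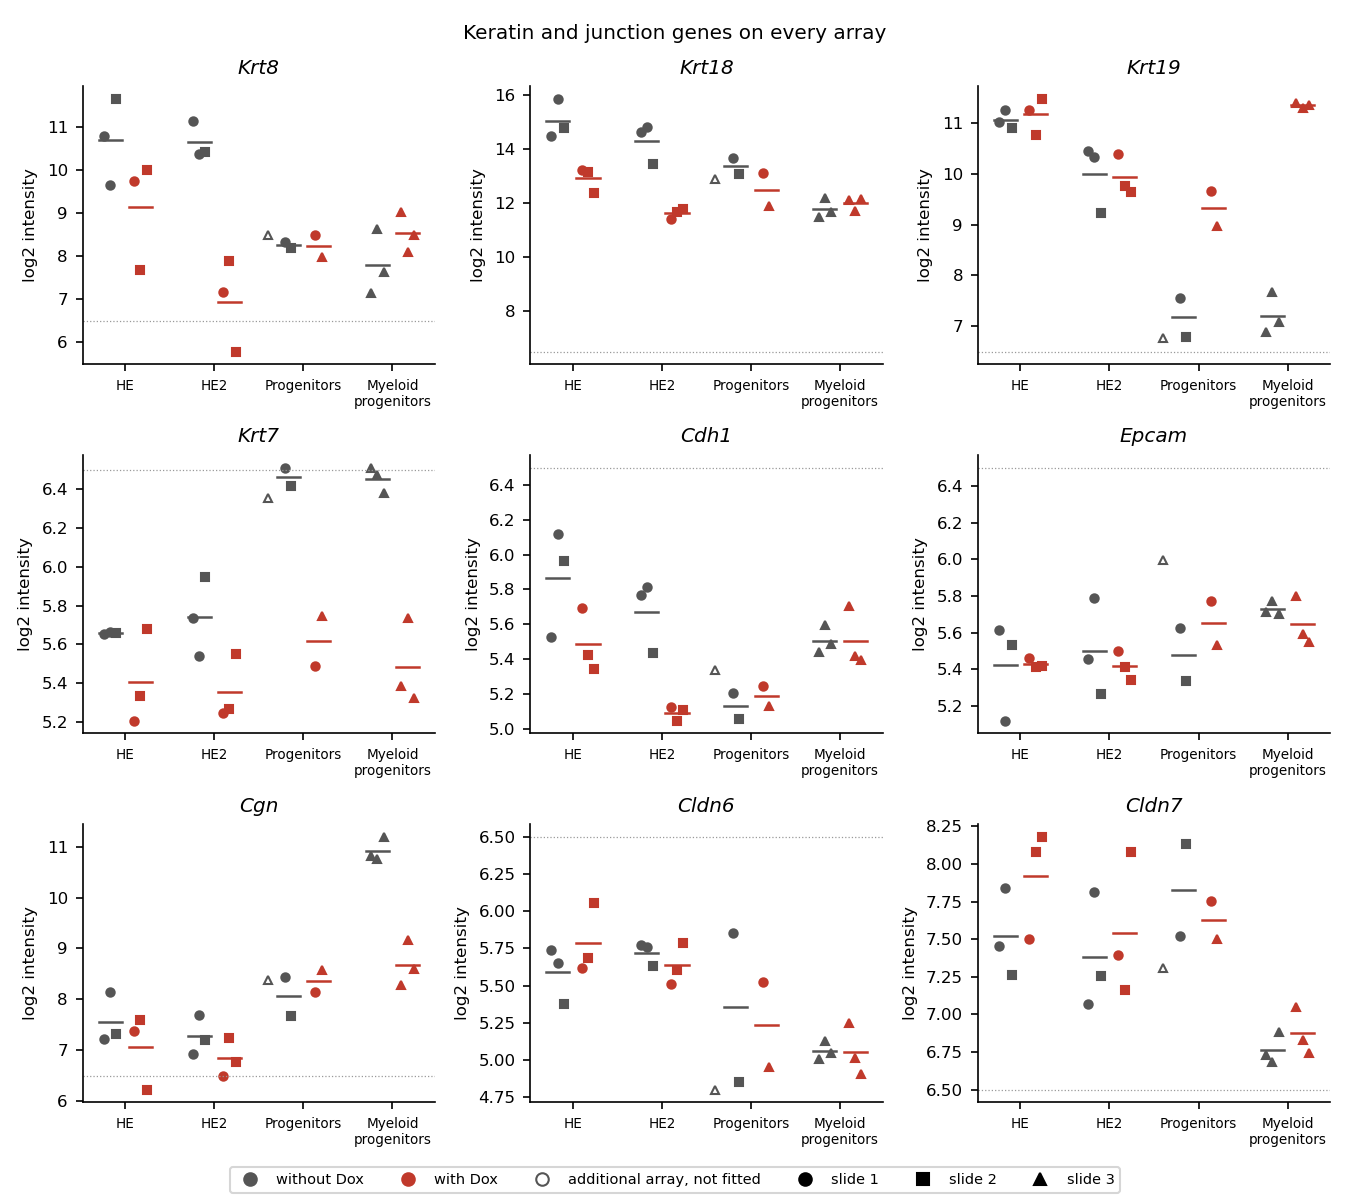
Log2 intensity (y axis) of the 9 genes on each array at the 4 stages (x axis), without Dox in grey and with Dox in red; symbols give the slide, open symbols the additional uninduced progenitor array, horizontal bars the group means and the dotted line the level of 6.5 used for testing. Krt18 was lower on all induced than on all uninduced arrays of HE and HE2, Krt19 was higher with Dox in progenitors and myeloid progenitors, and Cdh1, Epcam and Cldn6 stayed below the dotted line.

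To see which of these genes differed with Dox in the earliest population, HE was compared with and without Dox. Krt18 fell 4.37-fold, and it was 1 member called of the 6 tested; over all genes tested 7.09% were called. A call needed a limma P no higher than 0.001 before adjustment, together with a minimum change of 2-fold. Krt18 was 14.48, 15.87 and 14.78 on the uninduced arrays and 13.21, 13.15 and 12.38 on the induced arrays. The lowest uninduced array was thus above the highest induced array. The log2 change was -2.13 ± 0.40 (SE; limma adjusted p = 0.00106), and on each of the slides that held both conditions it was -1.96 and -2.01.

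Krt8, the partner of Krt18, was 10.80, 9.65 and 11.66 without Dox in HE and 9.74, 7.68 and 10.01 with Dox. These arrays overlapped, and the difference of -1.57 ± 0.61 on the log2 scale did not pass the test (limma adjusted p = 0.10). The induced array at 7.68 was the lowest of the 6, and the within-slide differences were -0.49 and -2.82. The arrays of Krt19 overlapped in HE, with means of 11.05 ± 0.18 and 11.17 ± 0.37 (SD, n = 3 each). Cgn and Cldn7 overlapped between the conditions, with log2 differences of -0.49 ± 0.36 and 0.40 ± 0.26 (SE). Krt7 was near background, at 5.66 ± 0.01 without and 5.41 ± 0.24 with Dox (SD, n = 3 each). Cdh1 was well above background on all 3 uninduced and 2 of 3 induced HE arrays, with means of 5.87 ± 0.31 and 5.49 ± 0.18 (SD).

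Markers of other cell types also changed with Dox in HE. Of 8 markers of cardiac or smooth muscle, 2 fell and 1 rose with Dox, and the log2 of their summed level was 16.70 to 17.89 without and 15.24 to 15.70 with Dox. The 1 that rose was Myl7, with a mean of 5.615 without and 6.771 with Dox. As this mean reached the level for testing only in induced HE, the rise of Myl7 is a description. Of 8 markers of fibroblasts or mesenchyme, 1 fell and 1 rose, and their summed level was 13.32 to 15.24 without and 13.70 to 13.93 with Dox. Each cardiac or smooth muscle marker was well above background on at least 1 array of both HE groups, as was each mesenchymal marker except Lum with Dox. The visceral or definitive endoderm markers, known for Krt8 and Krt18, had a summed level of 14.06 to 14.49 without and 14.04 to 14.54 with Dox, with 1 of 6 tested called lower, Foxa2, and Ttr not well above background on any induced HE array. Trophoblast and mesothelium also carry these keratins. Of 6 trophoblast markers 2 rose in HE with Dox (summed level 9.62 to 10.37 without and 10.54 to 11.20 with Dox), and of 4 mesothelial markers 2 rose (10.27 to 10.57 and 10.43 to 11.30). Msln, one of these mesothelial markers, had a mean of 4.98 without and 6.92 with Dox. Its mean reached the level for testing only in induced HE, so its rise is a description. Elf5 of the trophoblast and Upk3b and Bnc1 of the mesothelium were not well above background on any induced HE array. Of 8 haematopoietic markers 2 fell, Itga2b among them (to a log2 mean of 7.49 with Dox), with a summed level of 13.66 to 13.94 without and 13.29 to 13.96 with Dox. Of 6 pluripotency markers 1 fell, Lin28a, with a summed level of 13.73 to 14.75 without and 12.61 to 13.13 with Dox. A summed level mostly follows the brightest probe of its list. For pluripotency this was Lin28a (mean 14.19 without and 12.61 with Dox), while Nanog went from 7.27 to 8.02. For endoderm it was Rhox5 (13.9 and 14.1). The median log2 changes in HE were -0.06 for the pluripotency and -0.05 for the endoderm markers. In such populations fewer cells of a type and less RNA per cell cannot be told apart, and the part of these markers in the change of Krt18 was not tested.

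In HE2 both partners were lower with Dox. Krt8 was 11.14, 10.37 and 10.43 without Dox and 7.18, 7.88 and 5.78 with Dox, a difference of -3.70 ± 0.61 (log2, SE). The 2 sets of arrays did not overlap, and the difference was -3.58 on slide 1 and -3.59 on slide 2. Krt18 was 14.62, 14.80 and 13.46 without and 11.40, 11.67 and 11.79 with Dox, a difference of -2.67 ± 0.40. These arrays did not overlap either. For Krt18 the difference was -3.31 on slide 1 and -1.73 on slide 2. Krt19, Krt7, Cgn and Cldn7 overlapped between the conditions, with log2 differences of -0.07, -0.38, -0.43 and 0.17. Cdh1 was well above background on all 3 uninduced arrays, at 5.44 to 5.82, and on none of the 3 induced arrays, at 5.05 to 5.13. Over all genes 7.22% were called in this comparison, from which nothing is read here. The cardiac or smooth muscle markers had a summed level of 14.95 to 16.73 without and 13.63 to 13.73 with Dox in HE2, with 4 of 8 called lower. Endothelial markers had a summed level of 15.63 to 16.15 without and 16.95 to 17.05 with Dox in HE2, with 3 of 9 called higher, and haematopoietic markers 15.08 to 15.50 and 14.57 to 15.04, with 2 of 8 called lower. Of the fibroblast or mesenchyme markers 1 of 8 was called lower, of the endoderm markers 1 of 6 higher and 1 lower, of the pluripotency markers 1 of 6 lower and of the trophoblast markers 1 of 6 higher. The part of these markers in the keratin difference was not tested.

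In the CD41+KIT+Tie2- progenitors the response was in another keratin. Krt19 rose 4.40-fold with Dox and was 1 member called of the 6 tested, against 3.73% of all genes. Krt19 was 7.56 and 6.79 on the uninduced arrays and 9.66 and 8.97 on the induced arrays, with no overlap. The log2 change was 2.14 ± 0.39 (SE; limma adjusted p = 0.00254). On slide 1 the difference was 2.10, and on slide 3, where the additional uninduced array read 6.77, it was 2.21. With 2 arrays per group the call was lost without the uninduced array at 6.79 (log2 change 1.75) or the induced array at 9.66 (1.79), and also when only these 2 groups were fitted.

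Krt8 and Krt18 showed no called difference in progenitors. Krt8 was 8.34 and 8.19 without and 8.50 and 7.99 with Dox, so that induced and uninduced arrays were interleaved. Krt18 was 13.66 and 13.07 without and 13.11 and 11.90 with Dox, a log2 difference of -0.86 ± 0.49 (SE; limma adjusted p = 0.34). Krt7 was higher on both uninduced arrays, at 6.51 and 6.42, than on the induced arrays, at 5.49 and 5.75, a 1.80-fold difference. Krt7 passed the intensity level of 6.5 on 2 arrays only, 1 of uninduced progenitors and 1 of uninduced myeloid progenitors at 6.51 each, so it entered the tests through the groups where it was highest and its differences are given as a description. Cgn and Cldn7 overlapped between the conditions. Cdh1 was not well above background on any progenitor array.

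Myeloid progenitors gave the largest change of the tested members, in Krt19. Krt19 was 6.88, 7.67 and 7.08 without Dox and 11.38, 11.29 and 11.35 with Dox. The induced arrays lay within 0.1 of each other on the log2 scale and far above all uninduced arrays. The change was 17.5-fold (log2 4.13 ± 0.32 SE; limma adjusted p = 1.27e-07). Cgn fell 4.72-fold in the same comparison, from 10.81, 10.75 and 11.20 to 8.28, 9.17 and 8.59, again with no overlap (log2 change -2.24 ± 0.36 SE; limma adjusted p = 0.000242). These were 2 members called of the 6 tested, against 6.31% of all genes. Without the third induced array, whose labels differ, Krt19 changed by 4.13 and Cgn by -2.19, and both were still called. All 6 myeloid arrays were on slide 3.

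Krt7 was 6.51, 6.47 and 6.38 without and 5.39, 5.74 and 5.32 with Dox in myeloid progenitors. Its arrays did not overlap, with a log2 difference of -0.97 ± 0.16 (SE), or 1.96-fold, given as a description for the same reason. Krt7 was well above background on 1 of the 3 induced arrays and on all 3 uninduced arrays. Krt8 was 7.80 ± 0.77 without and 8.54 ± 0.48 with Dox (SD, n = 3 each), and Krt18 was 11.49, 12.21 and 11.67 without and 12.13, 11.71 and 12.16 with Dox. The arrays of both keratins overlapped between the conditions. Cldn7 was 6.76 ± 0.10 and 6.87 ± 0.16, and Cldn6 was not well above background on any of the 6 myeloid arrays.

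Endothelial markers rose at both stages where Krt19 rose, and 3 of 9 were also called higher with Dox in HE2, where Krt19 overlapped between the conditions (-0.07). In myeloid progenitors 7 of 9 endothelial markers rose with Dox and none fell, and the log2 of their summed level was 13.49 to 13.96 without and 15.66 to 15.91 with Dox. In progenitors 3 of 9 rose, with a summed level of 14.67 to 14.73 without and 15.54 to 15.76 with Dox. In HE 1 of 9 rose, with a summed level of 16.29 to 17.36 without and 16.48 to 17.37 with Dox, where Krt19 was not called. All 9 markers were well above background on every myeloid array. The haematopoietic markers, beside the fall of Cgn, had a summed level of 16.05 to 16.21 without and 15.70 to 15.99 with Dox in myeloid progenitors, with 0 of 8 called by limma and 4 of 8 at an unadjusted limma p under 0.05. Of 4 mesothelial markers 1 rose with Dox in progenitors and 1 in myeloid progenitors, Wt1 at both stages. Its mean went from 6.44 to 11.24 in progenitors and from 7.34 to 10.38 in myeloid progenitors. The summed level of these markers in myeloid progenitors was 8.42 to 8.66 without and 10.14 to 11.45 with Dox. There Msln went from 5.14 to 5.52, Lrrn4 from 5.67 to 6.07 and Upk1b from 5.78 to 5.36, Upk3b being at background on all 6 arrays. Of the trophoblast markers 2 of 6 were called higher in progenitors and 1 of 6 in myeloid progenitors. Of the cardiac or smooth muscle markers 1 of 8 was called higher at each of these stages, and of the endoderm markers 1 of 6 in myeloid progenitors. In these 3 lists 0 were called lower at either stage. Of the haematopoietic markers 1 of 8 was called lower in progenitors. The part of all these markers in either change was not tested.

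**Figure D2:**
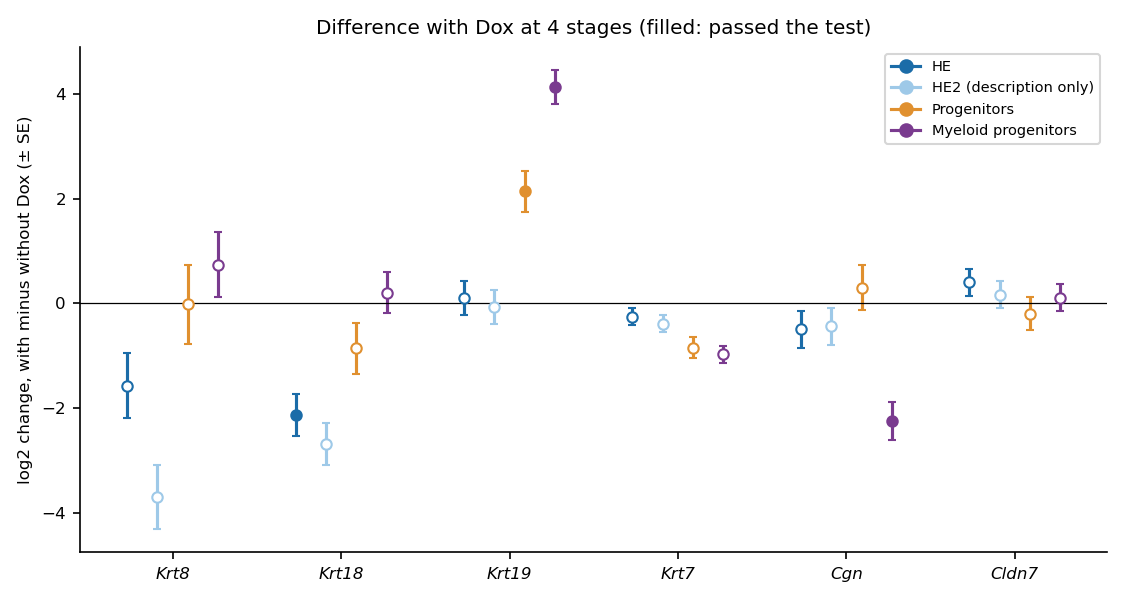
Difference between arrays with and without Dox (y axis, log2, error bars SE of the limma fit) for the 6 tested genes (x axis) at 4 stages; filled points passed the test, and the HE2 points, given as a description, were not tested. Krt18 was lowest against its control in HE2 and HE, whereas Krt19 rose in progenitors (2.14) and myeloid progenitors (4.13) and Cgn fell in myeloid progenitors (-2.24).

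The difference in response between stages was tested as an interaction term across all genes, leaving out HE2. These terms were added after the separate comparisons had been seen. HE and progenitors had Dox from day 1 to day 2 of blast culture, and myeloid progenitors for 12 h in expansion medium. In terms with myeloid progenitors, stage cannot be told apart from the time with Dox or the medium. The response of Krt19 was larger by 2.03 ± 0.51 (log2, SE) in progenitors than in HE (limma adjusted p = 0.0312), a call lost under 10 of 22 alternative settings. It was larger by 4.02 ± 0.46 in myeloid progenitors than in HE (limma adjusted p = 3.3e-05), a call lost under 0 of 24. It was 1.99 ± 0.51 larger in myeloid progenitors than in progenitors, just outside the limit (limma adjusted p = 0.0666), and was called under 12 of 22 alternative settings. The fall of Krt18 in HE differed from its response in myeloid progenitors by 2.34 ± 0.56 (limma adjusted p = 0.0148), a call lost under 7 of 24. This fall did not differ past the limit from the response in progenitors (1.27 ± 0.63, limma adjusted p = 0.32). The response of Cgn in myeloid progenitors differed by -2.54 ± 0.56 from that in progenitors (limma adjusted p = 0.03), a call lost under 3 of 22. It differed by -1.75 ± 0.50 from that in HE, which was not called (limma adjusted p = 0.0427) but was under 4 of 24 alternative settings. Of all genes, 2.97% were called for progenitors against HE, 4.72% for myeloid progenitors against HE and 1.5% for myeloid progenitors against progenitors. For Krt8 none of the 3 interaction terms was called, the largest being 2.31 ± 0.87 between myeloid progenitors and HE (limma adjusted p = 0.15).

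**Figure D3:**
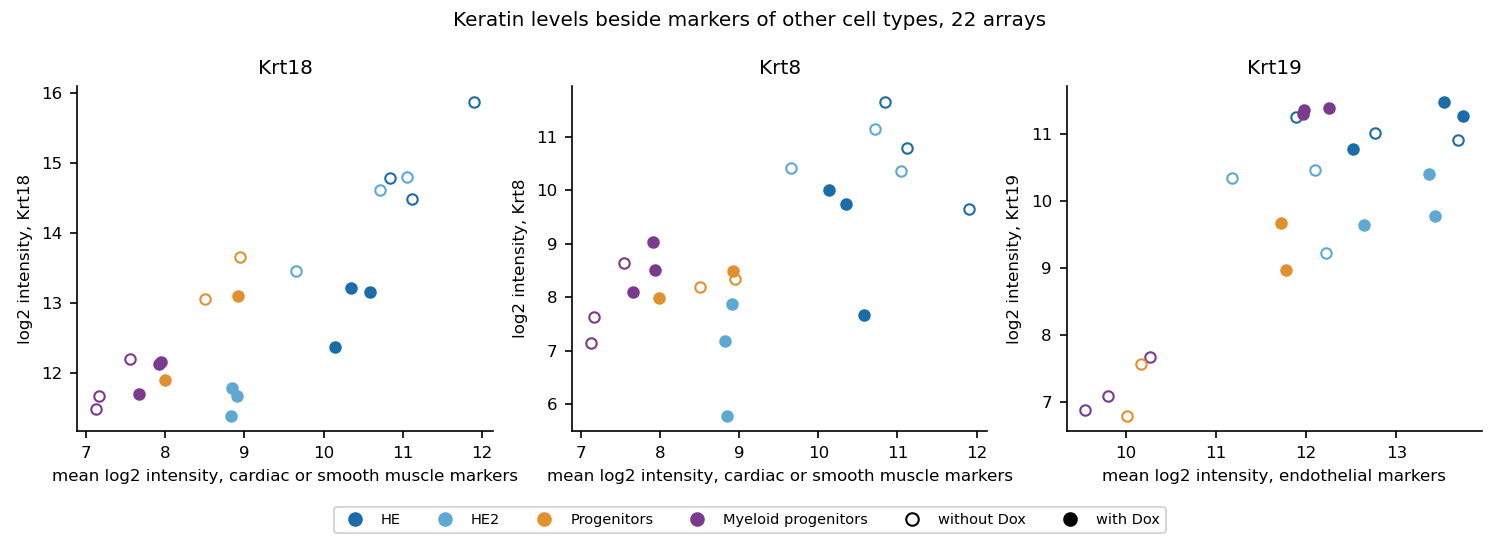
Log2 intensity of Krt18, Krt8 and Krt19 (y axes) on each of the 22 fitted arrays against the mean log2 intensity of markers of cardiac or smooth muscle or of endothelium (x axes); colours give the stage, and open and filled points arrays without and with Dox. The 3 induced myeloid arrays have Krt19 between 11.29 and 11.38, and the 3 induced HE2 arrays have Krt18 between 11.40 and 11.79.

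To follow the genes along normal development, the stages were compared without Dox. Between HE and HE2 0 of the 6 tested members were called by limma, against 5.07% of all genes, and 1 of them, Krt19, had an unadjusted limma p under 0.05. Krt19 was lower on all HE2 arrays than on all HE arrays (10.45, 10.33 and 9.22 against 11.01, 11.25 and 10.90), a log2 change of -1.05 ± 0.32 (limma adjusted p = 0.0435) that missed the limit of P. With the slide as a term it was called. Krt8, whose HE2 values chose the set, is described without a test at every step that uses them. Its means were 10.71 in HE and 10.64 in HE2, a log2 difference of -0.06 ± 0.61.

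From HE2 to progenitors Krt19 fell 7.08-fold, from 10.45, 10.33 and 9.22 to 7.56 and 6.79 (log2 change -2.82 ± 0.36 SE; limma adjusted p = 3.89e-05). It was 1 member called of 6, against 5.39% of all genes. Krt8 was also lower on both progenitor arrays (8.34 and 8.19) than on all HE2 arrays (10.37 to 11.14), a difference of -2.38 ± 0.68. Krt7 was higher on both progenitor arrays than on all HE2 arrays, by 0.72 ± 0.18 on the log2 scale, which is less than 2-fold. Of 9 endothelial markers 4 fell at this step, and their summed level was 15.63 to 16.15 in HE2 and 14.67 to 14.73 in progenitors. Of 8 cardiac or smooth muscle markers 3 fell, with a summed level of 14.95 to 16.73 in HE2 and 14.27 to 14.72 in progenitors. The part of these markers in the fall of Krt19 was not tested. This comparison uses the same uninduced HE2 and progenitor arrays as the comparisons with Dox above.

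From progenitors to myeloid progenitors Cgn rose 7.27-fold, from 8.44 and 7.68 to 10.81, 10.75 and 11.20 (log2 change 2.86 ± 0.40 SE; limma adjusted p = 3.39e-05). It was 1 member called of 6, at a step where 13.9% of all genes were called, 50.2% of them higher (37% higher with each array scaled to its 75th percentile). Slide and stage were largely shared at this step. The single uninduced progenitor array on slide 3 read 8.37, below all 3 uninduced myeloid arrays of that slide, but with slide as a term the change of 2.34 was no longer called. Krt18 was lower on all myeloid arrays than on both progenitor arrays (11.49 to 12.21 against 13.07 to 13.66), and Cldn7 likewise (6.68 to 6.88 against 7.52 to 8.13). Neither was called, at limma adjusted p-values of 0.0116 and 0.00913. On slide 3 the additional progenitor array read 12.90 for Krt18 and 7.31 for Cldn7. At this step 3 of 8 cardiac or smooth muscle markers fell and 1 rose, 3 of 8 haematopoietic markers fell, and the part of these markers was not tested. Krt19 had means of 7.18 and 7.21 in the 2 stages.

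With Dox the same steps were compared, on arrays also used above. From HE to HE2 0 of 6 members were called by limma, against 3.1% of all genes, and Krt18 and Krt19, of the members other than Krt8, had an unadjusted limma p under 0.05. Krt8 was 9.74, 7.68 and 10.01 in induced HE and 7.18, 7.88 and 5.78 in induced HE2, overlapping at 1 array each (log2 difference -2.19 ± 0.61). Krt19 was lower on all induced HE2 arrays, by -1.24 ± 0.32 (limma adjusted p = 0.0293), and was called without the induced HE array at 10.76 (-1.44) or without the induced HE2 array at 10.39 (-1.47). Krt18 was also lower on all induced HE2 arrays, by -1.29 ± 0.40 (limma adjusted p = 0.0671). At the same step 4 of 8 cardiac or smooth muscle markers and 3 of 4 mesothelial markers fell, and their part in these differences was not tested. Msln was among these mesothelial markers, and its mean reached the level for testing only in induced HE, so its fall is a description.

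From HE2 to progenitors with Dox, 0 of 6 members were called by limma, against 7.36% of all genes, and 1, Cgn, had an unadjusted limma p under 0.05. Cgn was higher on both induced progenitor arrays (8.15 and 8.57) than on all induced HE2 arrays (7.25 or less), by 1.52 ± 0.40 (limma adjusted p = 0.0143), and was called without the HE2 array at 7.25 (1.72). Krt19 was 9.93 ± 0.40 (SD, n = 3) in induced HE2 and 9.66 and 8.97 in induced progenitors, a log2 change of -0.61 ± 0.36 (SE). Krt8 and Krt18 were higher on both induced progenitor arrays than on all induced HE2 arrays, by 1.30 ± 0.68 and 0.88 ± 0.45 (SE). Without Dox they differed at this step by -2.38, with no overlap, and -0.93, with overlapping arrays.

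The levels of Krt19 had their own order over the 8 groups. Induced myeloid progenitors (mean 11.34) overlapped induced HE (11.17), which overlapped uninduced HE (11.05). Uninduced HE2 and induced HE2 (9.93) followed and overlapped, and induced progenitors (9.32) overlapped both HE2 groups. Uninduced myeloid progenitors (7.21) and uninduced progenitors (7.18) were lowest and overlapped. For Cgn uninduced myeloid progenitors (10.92) were above all other groups on every array, and induced myeloid progenitors (8.68), induced progenitors (8.36) and uninduced progenitors (8.06) overlapped. For Krt18 uninduced HE (15.04) and uninduced HE2 (14.30) were highest and overlapped, and induced HE2 (11.62) and uninduced myeloid progenitors (11.79) were lowest and overlapped.

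The 3 members that did not reach the level for testing had narrow ranges. Cdh1 lay between 5.05 and 6.12 on all arrays and was well above background on 9 of 23. Epcam lay between 5.12 and 5.99 and was well above background on 11 of 23, with group means between 5.42 and 5.73. Cldn6 lay between 4.80 and 6.05 and was well above background on 12 of 23. Cldn6 was above background on all HE arrays, all uninduced HE2 arrays and 2 of 3 induced HE2 arrays, on 1 of 3 uninduced progenitor arrays counting the additional one, and on no myeloid array. Krt8, Krt18, Krt19, Cgn and Cldn7 were well above background on all 23 arrays.

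The genes whose pattern was most like that of Krt8 over the 22 fitted arrays were Loxl1 (Pearson's r = 0.885), Praf2 (0.828), Wnt4 (0.822), Dusp9 (0.813) and Rhod (0.808). These values are over arrays that fall into 8 groups and share slides, and are a description. The like genes of the other called members were looked up after their values had been seen. For Krt18 they were Ppp2r2c (0.93), Ntf3 (0.929), Hand1 (0.928), Prkaa2 (0.924) and Igsf11 (0.922), and for Krt19 they were Pmp22 (0.934), Krt42 (0.92), Vim (0.915), Thbd (0.915) and Dysf (0.914). Hand1 is one of the cardiac or smooth muscle markers above. Vim encodes vimentin, the intermediate filament protein of mesenchymal and endothelial cells, and Thbd the endothelial receptor thrombomodulin. For Cdh1, which did not reach the level for testing, none are given.

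The gene most like Cgn was BC021767 (r = 0.98), followed by Slc22a4 (0.931), Gzmb (0.928), Cdh17 (0.925) and Lrrc20 (0.925). BC021767, looked at after its values were seen, is also a neighbour of Cgn on chromosome 3 in the RefSeq order, with 3 genes between them, and is annotated as a transcribed pseudogene. It was 10.34, 10.22 and 10.52 in uninduced and 7.96, 8.54 and 8.15 in induced myeloid progenitors, with no overlap (log2 change -2.15 ± 0.26 SE; limma adjusted p = 1.3e-05). From uninduced progenitors to uninduced myeloid progenitors BC021767 rose by 2.37 ± 0.29 (limma adjusted p = 8.21e-06). In HE it did not differ with Dox (-0.16 ± 0.26). Whether the probes of both genes detect the same transcript was not tested. Of the other measured genes within 5 places of Cgn, Tuft1 fell with Dox in myeloid progenitors (-1.29) and Pogz and Psmb4 differed by 0.11 and -0.03.

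**Figure D4:**
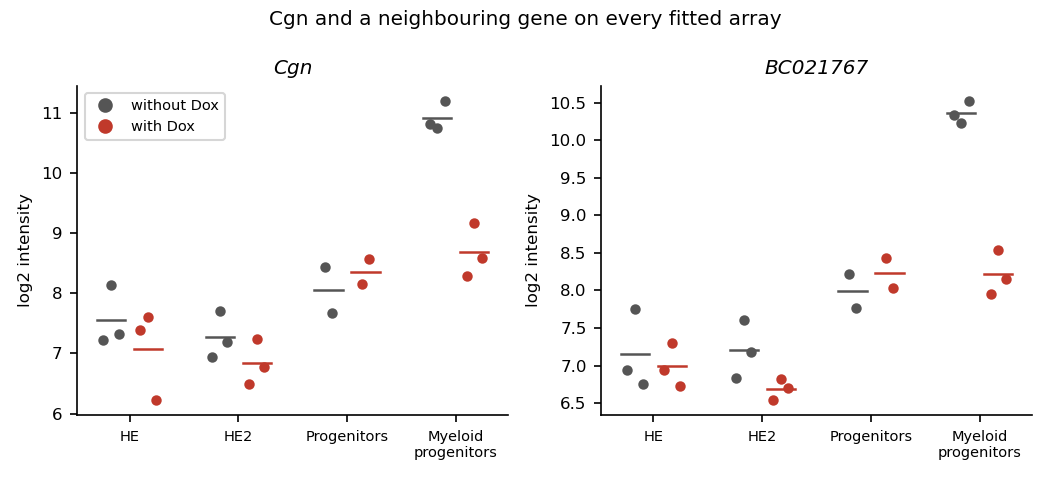
Log2 intensity (y axis) of Cgn and of the neighbouring BC021767 on each fitted array at the 4 stages (x axis), without Dox in grey and with Dox in red, with bars at the group means. In both, the 3 uninduced myeloid arrays are highest, between 10.75 and 11.20 for Cgn and between 10.22 and 10.52 for BC021767.

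Neighbouring genes of the keratins were looked at within 5 places. Around Krt19, the tested keratin genes Krt13, Krt15, Krt9 and Krt14 differed with Dox in myeloid progenitors by 0.31, 0.48, 0.01 and -0.12 on the log2 scale, none of them called, beside 4.13 for Krt19. Krt42, another type I keratin, outside these 5 places and named above for its pattern, rose from 6.20 to 9.10 (log2 change 2.90 ± 0.35 SE; limma adjusted p = 1.39e-05). Around Krt8 and Krt18, Krt79 and Eif4b differed with Dox in HE by -0.39 and 1.06, neither called, beside -1.57 for Krt8 and -2.13 for Krt18. Tns2, near Krt18, was called higher with Dox in myeloid progenitors (2.17).

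The wider set of epithelial genes comprised 6 lists with 89 genes on the arrays, of which 72 were tested. In HE 8 of the 72 rose and 5 fell with Dox (18.1% called, against 7.09% of all genes). In progenitors 3 rose and 0 fell (4.17%, against 3.73%), and in myeloid progenitors 8 rose and 0 fell (11.1%, against 6.31%). Most called genes of the whole array also rose with Dox. The share higher among all called genes was 66.2% in HE, 81.1% in progenitors and 81.2% in myeloid progenitors. Along the stages the share called was 12.5% from HE to HE2 without Dox and 11.1% with Dox, 13.9% from HE2 to progenitors without and 6.94% with Dox, and 6.94% from progenitors to myeloid progenitors. These counts depended on single arrays and on the groups in the fit. Without 1 array at a time, 0 to 6 list genes were called with Dox in progenitors, 11 to 14 in HE and 5 to 7 in myeloid progenitors. In the same way 4 to 10 were called from HE to HE2 without Dox and 4 to 8 with Dox, 1 to 8 (10 with all arrays) from HE2 to progenitors without Dox and 3 to 7 with Dox, and 2 to 6 from progenitors to myeloid progenitors. The count of 1 came without uninduced progenitor replicate 2, which read 6.79 for Krt19. When only the groups compared were fitted, 6 were called with Dox in HE (4.18% of all genes), 0 in progenitors (1.42%), 4 from HE to HE2 without Dox and 2 from HE2 to progenitors without Dox. The group means of Cldn3 and Grhl2 reached 6.5 only in induced HE, and those of Krt23 and Pkp1 only in induced myeloid progenitors. Their calls with Dox at these stages are thus counted from the groups where they were highest. The lists were chosen with earlier results of these data known, and no test of the lists was made.

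Among the 13 tested of 14 other keratins and cytolinkers, 1 rose and 1 fell in HE and 3 rose in myeloid progenitors; the median differences of the list were 0.10 and 0.35, beside medians of -0.01 and -0.02 over all genes. Krt20, a keratin of intestinal and urothelial cells, rose 5.33-fold in HE (6.30 to 8.71, limma adjusted p = 4.08e-05), the opposite direction to Krt18. Plec, plectin, which links filaments to junctions, fell 4.40-fold in HE (limma adjusted p = 0.000197). Vim rose 4.31-fold in myeloid progenitors (15.16 to 17.27, limma adjusted p = 1.77e-06).

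Of the tight junction genes 17 of 22 were tested; 2 rose and 1 fell in HE, 1 rose in progenitors and 0 were called by limma in myeloid progenitors (6 at an unadjusted p under 0.05). Cldn15, a claudin that forms cation channels, rose 5.58-fold in HE (7.54 to 10.02, limma adjusted p = 2.1e-06), and Cldn3 rose 2.59-fold there (5.87 to 7.25). The mean of Cldn3 reached the level for testing only in induced HE, so its rise is given as a description. Tjp1, which encodes the scaffold protein ZO-1, rose 4.56-fold in progenitors (9.31 to 11.50, limma adjusted p = 0.00262) and fell 4.72-fold from uninduced HE2 to uninduced progenitors (limma adjusted p = 0.000518). Both calls were lost without the uninduced progenitor replicate 2 (1.59 and -1.64 on the log2 scale) and when only the groups compared were fitted. The median difference of the list was -0.11 in HE, -0.13 in progenitors and 0.21 in myeloid progenitors.

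Of 14 tested adherens junction and desmosome genes 1 rose and 1 fell in HE, 1 rose in progenitors and 2 rose in myeloid progenitors. Pkp2, a desmosomal plakophilin known for its part in the heart, fell 7.44-fold in HE (12.72 to 9.83, limma adjusted p = 2.07e-06). Nectin2 fell 5.43-fold from HE2 to progenitors without Dox (limma adjusted p = 0.00591), a call lost under 4 of 17 alternative settings (-3.55 to -1.34). Perp, a desmosomal membrane protein, rose 4.79-fold from HE to HE2 without Dox (11.75 to 14.01, limma adjusted p = 0.000855). Of 8 tested epithelial surface genes 0 were called by limma for Dox in HE, progenitors or myeloid progenitors (1, 3 and 3 at an unadjusted p under 0.05), and Cd24a fell from HE to HE2 both without Dox (2.75-fold, lost under 6 of 18 alternative settings) and with Dox (5.01-fold, lost under 0 of 18).

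Among 12 tested epithelial transcription and splicing regulators 4 rose and 1 fell in HE, 1 rose in progenitors and 3 rose in myeloid progenitors. Foxa2, a forkhead factor of endoderm, fell 5.42-fold with Dox in HE (11.16 to 8.72, limma adjusted p = 0.00103) and 5.08-fold from HE to HE2 without Dox. Both calls of Foxa2 were lost when only the groups compared were fitted. Tfap2c rose with Dox at the 3 tested stages, by 1.79, 1.71 and 1.43 on the log2 scale, from a level well above background on 1 of 2 arrays in uninduced progenitors. The calls of Tfap2c were lost under 1 of 18 alternative settings in HE, 8 of 16 in progenitors, the fit without uninduced replicate 2 among them, and 6 of 18 in myeloid progenitors. Klf5 rose in HE (2.60-fold) and in myeloid progenitors (2.39-fold) and fell 5.02-fold from progenitors to myeloid progenitors without Dox. The call of this fall was lost with slide as a term, and that of the rise in HE when only the groups compared were fitted. All 8 repressors of Cdh1 were tested; with Dox 1 fell in HE and 0 were called by limma in progenitors or myeloid progenitors (2 and 2 at an unadjusted p under 0.05). From HE2 to progenitors 4 of the 8 fell without Dox and 3 with Dox, among them Snai2, by -2.44 and -2.05 on the log2 scale, which was called under every alternative. Of all genes called at this step, only 32.9% were higher without Dox and 27.4% with Dox. Of the 4 calls without Dox 1 was left without either progenitor array, without HE2 replicate 2 or when only these groups were fitted, and of the 3 with Dox 1 was left in that last fit. Twist2 was among the repressors that fell without Dox (-1.98, lost under 10 of 17 alternative settings) and Zeb1 among those that fell with Dox (-1.56), while Cdh1 itself was not well above background in progenitors.

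**Figure D5:**
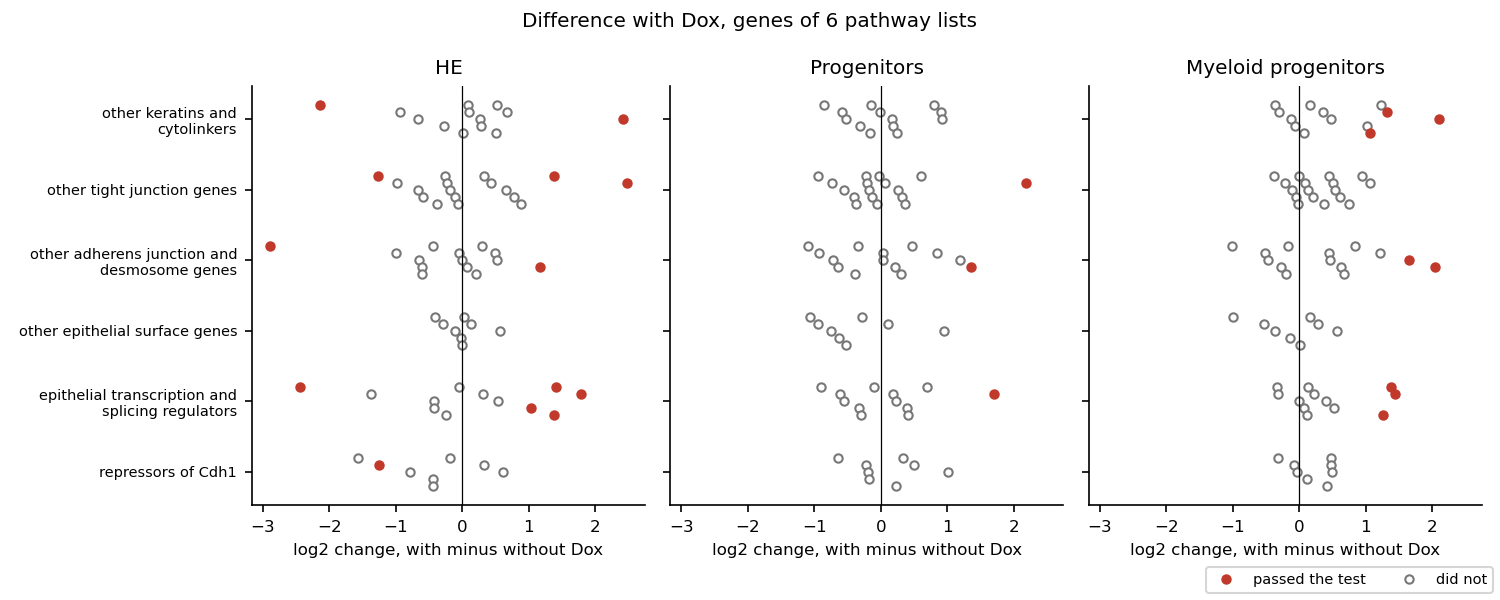
Difference between arrays with and without Dox (x axis, log2) for each tested gene of the 6 lists (y axis) in HE, progenitors and myeloid progenitors; red points passed the test. In HE called genes lie on both sides of 0, and in progenitors and myeloid progenitors the called genes all lie above 0. Of all genes called, 81.1% in progenitors and 81.2% in myeloid progenitors were higher with Dox.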

How the data were processed

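The 9 members, the gene lists and the marker lists were chosen with earlier results of these data known. Each array was deposited as scanner output, in which the median spot intensity and the median background intensity are on a linear scale (Agilent Feature Extraction 10.7.3.1 in the file headers, 10.7.1.1 in the submitters' processing notes). The authors also deposited a matrix of log2 values, used here as an alternative. From the scanner intensities, background was corrected with normexp (offset 16) and the 23 arrays were quantile normalised (limma 3.58.1, R 4.3.3), so a level is a log2 intensity of 1 probe and is not compared between probes. Control spots were left out and spots of a probe averaged. Of 55681 probes 26582 were named through RefSeq accessions (names of GRCm38.p6), the array annotation being of mm9, and the probe of highest mean stood for each of 20145 genes. Genes reaching 6.5 on at least 1 array (15202) were fitted on 22 arrays as 8 group means with empirical Bayes moderation. Calls required both an unadjusted limma P no higher than 0.001 and a minimum change of 2-fold; adjusted p-values are Benjamini-Hochberg over all 15202 genes. The fit was tested on simulated data. All 9 members are named, with at most 3 called genes per list by size of change. The number of arrays limits the precision. No pair of arrays held identical values. Replicate numbers deviated together only between uninduced HE and HE2 among groups with 3 arrays compared here (correlations 0.394 to 0.795). Alternatives covered background correction, scaling, filter, slide, replicate block, the groups in the fit and each array left out.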

Additional observations from a re-analysis of the deposited data

Results flagged for a closer look

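The response to Dox differed between stages for 3 genes, by an interaction term in the limma fit across all genes. For Krt19 the log2 response was larger by 2.03 in progenitors and by 4.02 in myeloid progenitors than in HE. For Krt18 the response in myeloid progenitors exceeded that in HE by 2.34. For Cgn the response in myeloid progenitors minus that in progenitors was -2.54. Under alternative settings the call of 2.03 was lost in 10 of 22, that of Krt18 in 7 of 24 and that of Cgn in 3 of 22. HE2 was left out of these terms. In the terms with myeloid progenitors, stage cannot be told apart from the time with Dox or the medium.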

How the results depend on the processing

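The calls of Krt18 in HE and of Krt19 and Cgn with Dox in myeloid progenitors held under every alternative run. The count of members called with Dox in progenitors went from 1 to 0 when only the 2 groups compared were fitted, and to 2 (Krt19 and Krt7) with no minimum fold. From HE to HE2 with Dox it went from 0 to 1 (Krt19) with an offset of 50, with the deposited log2 values or with slide as a term. Krt19 was also called there at an adjusted P of at most 0.05. From HE to HE2 without Dox it went from 0 to 1 (Krt19) with slide as a term or at that adjusted P. From HE2 to progenitors without Dox it went from 1 to 2 with no minimum fold, adding Krt7. From HE2 to progenitors with Dox it went from 0 to 1 (Cgn) with scaling to the 75th percentile or at that adjusted P. From progenitors to myeloid progenitors it went from 1 to 0 with slide as a term and to 3 (Cgn, Cldn7 and Krt18) at that adjusted P. Krt8 in the steps that use HE2 shares the values that chose the set, so its calls in the alternatives for those steps are not given. Krt7 entered through the groups where it was high, so these counts of Krt7 are a description. The cause of these shifts was not tested.

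With each array left out in turn, the count was 1 to 1 for Dox in HE, 0 to 1 in progenitors and 2 to 3 in myeloid progenitors, the third being Krt7. It was 0 to 0 from HE to HE2 without Dox, 1 to 1 from HE2 to progenitors without Dox and 0 to 1 with Dox, and 1 to 1 from progenitors to myeloid progenitors. From HE to HE2 with Dox, Krt19 was called without induced HE replicate 2 (-1.44) or without induced HE2 replicate 1 (-1.47). Of the differences in response between stages, that of Krt19 between myeloid progenitors and HE held under all 24 settings (3.73 to 4.25). That of Krt19 between progenitors and HE was lost under 10 of 22 (1.64 to 2.41), that of Krt18 under 7 of 24 (1.92 to 2.62) and that of Cgn under 3 of 22 (-2.92 to -2.16). Not called with all arrays, that of Krt19 between myeloid progenitors and progenitors was called under 12 of 22 (1.61 to 2.38) and that of Cgn between myeloid progenitors and HE under 4 of 24 (-2.17 to -1.48).

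With the replicate number as a block, the members called were 1 with Dox in HE, 1 in progenitors and 2 in myeloid progenitors, as without it, and the block changed no other count of members. Of all genes, the count called fell when only the groups compared were fitted, from 1078 to 636 with Dox in HE, from 567 to 216 with Dox in progenitors, from 770 to 465 and from 471 to 286 from HE to HE2 without and with Dox, and from 1119 to 423 from HE2 to progenitors with Dox. With slide as a term it was 331, 741 and 574 for Dox in progenitors, HE2 to progenitors with Dox and progenitors to myeloid progenitors (2118 without). With Dox in progenitors it lay between 332 and 888 with 1 array left out. Scaling to the 75th percentile moved the median change of all genes with Dox from -0.04 to -0.19 in progenitors and from -0.02 to -0.15 in myeloid progenitors. Alternatives with slide as a fixed term, with no minimum fold and for differences between stages were chosen after seeing the data, as were those for the list genes. Cdh1, Epcam and Cldn6 lie near background, so small differences in them were not detectable. Krt7 was also low and was well above background on 16 of 23 arrays. Its induced and uninduced arrays did not overlap in progenitors and myeloid progenitors. Slide and stage are largely shared for myeloid progenitors.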
